A study of Mus musculus with 12 samples.

Results

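The 10 genes described here act in POLQ-mediated end joining, in PARP signaling with the ligation that follows it, and in the first step of DNA end resection. They are Polq, Parp1, Parp2, Lig3, Xrcc1, Fen1, Rbbp8, Mre11a, Nbn and Rad50. They were taken by name for their role in repair, and all 10 were found among the 24091 genes with deposited values. Mouse cerebellum and medulloblastoma were profiled by poly(A) RNA sequencing in 12 samples, 3 in each of 4 groups, and expression is given in TPM, a unit scaled for the length of transcripts and for the total of each library. The tumors came from Brca2-mut;Trp53-mut mice GB344, GB359 and GB370, and adjacent cerebellum was taken from the same 3 mice. Control cerebella came from Brca2-mut;Trp53-WT mice GB361, GB508 and GB512 and from Brca2-WT;Trp53-mut mice GB517, GB519 and GB520.

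Brca2-mut stands for a conditional deletion of exons 3 and 4, driven in the developing central nervous system by Cre under the human GFAP promoter, so that cells outside this lineage keep an intact gene. A truncated BRCA2 protein without the PALB2-binding N terminus is still made. Trp53-mut is a whole-body knockout. The tumors, the adjacent cerebella and 1 control genotype carried the Brca2 deletion, and the tumors, the adjacent cerebella and the other control genotype lacked Trp53. No control group carried both mutations without a tumor, and none was wild type for both genes. Control cerebella were of P90 and are described as age-matched in the study, and tumors were collected at humane endpoints. The labels give no age for single mice. The tumors held summed TPM of 6 granule cell progenitor markers (Atoh1, Gli1, Gli2, Mycn, Sfrp1 and Barhl1) of 1725 to 1842, against 41.2 to 45.5 in the 6 control cerebella. Summed mature granule neuron markers ran the other way, at 124 to 433 TPM in tumors and 2818 to 3761 in controls. Gene-level TPM of Brca2 and Trp53 include transcripts that lack the deleted exons and therefore check no genotype.

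Double-strand breaks are repaired by homologous recombination when the ends are resected, a route that needs BRCA2. Resection begins when the MRE11-RAD50-NBN complex, with its cofactor CtIP (encoded by Rbbp8), nicks and trims the broken end. Short resected ends can instead be annealed at microhomologies and extended by the polymerase POLQ, with flaps cut by FEN1 and nicks sealed by the LIG3-XRCC1 ligase complex. PARP1 and PARP2 bind broken DNA and attach poly(ADP-ribose) chains that recruit XRCC1 and other factors. Cells that lack BRCA2 function are known to depend on POLQ and to be sensitive to PARP inhibitors. Granule cell progenitors, the cell of origin of SHH medulloblastoma, divide rapidly in the postnatal cerebellum, whereas granule neurons of the adult cerebellum no longer divide.

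RefSeq promoter windows of GRCm38.p6, from 250 bases before to 50 after an annotated start, were found for 7 of the 10 genes, in 8 windows because Fen1 has 2. Rbbp8, Nbn and Rad50 were not matched. The letters TTTGGCGC, TTTCCCGC, TTCCCGCC and TTTGGCGG (E2F), TTTGAA and TTCGAA (CHR, a cell cycle element) and CCAAT (NF-Y) were searched on both strands, so that a match may be printed as its reverse complement. Any of the E2F letters were in 3.69% of all 32851 windows, those of CHR in 19.2% and CCAAT in 37.4%. Among the 7 genes, Polq had E2F letters (GGCGGGAA, 9 to 16 bases after the start) and CHR letters at -242 to -237 and at -3 to 2, counting the start as 0. Fen1 had CHR letters in 1 of its windows, at -124 to -119. Mre11a had NF-Y letters at -73 and at -38 and Xrcc1 at -87, and the windows of Parp1, Parp2 and Lig3 and the other Fen1 window held none of these letters. The 250 bases before the start are shown for Polq and for 3 genes of the other steps, Fen1, Parp1 and Mre11a, because their letters differ. Whether these letters go with transcript levels was not tested. Capitals mark complete matches to the letters searched within the bases shown.
Polq, chr16:37011536-37011785, + strand: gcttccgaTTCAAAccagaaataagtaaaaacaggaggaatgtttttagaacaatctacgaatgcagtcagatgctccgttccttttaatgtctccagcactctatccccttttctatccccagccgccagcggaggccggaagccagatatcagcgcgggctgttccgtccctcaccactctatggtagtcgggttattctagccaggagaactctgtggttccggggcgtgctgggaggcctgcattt
Fen1, chr19:10204394-10204643, - strand: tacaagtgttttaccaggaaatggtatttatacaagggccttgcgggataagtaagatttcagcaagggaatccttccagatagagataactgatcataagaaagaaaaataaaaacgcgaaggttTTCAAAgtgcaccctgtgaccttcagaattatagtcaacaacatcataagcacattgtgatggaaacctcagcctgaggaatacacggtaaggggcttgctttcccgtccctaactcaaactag
Parp1, chr1:180568641-180568890, + strand: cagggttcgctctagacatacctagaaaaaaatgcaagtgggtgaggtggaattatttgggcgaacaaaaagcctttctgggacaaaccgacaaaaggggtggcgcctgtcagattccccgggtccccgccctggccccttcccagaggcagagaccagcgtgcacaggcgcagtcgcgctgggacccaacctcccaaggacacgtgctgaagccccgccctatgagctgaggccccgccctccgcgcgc
Mre11a, chr9:14784404-14784653, + strand: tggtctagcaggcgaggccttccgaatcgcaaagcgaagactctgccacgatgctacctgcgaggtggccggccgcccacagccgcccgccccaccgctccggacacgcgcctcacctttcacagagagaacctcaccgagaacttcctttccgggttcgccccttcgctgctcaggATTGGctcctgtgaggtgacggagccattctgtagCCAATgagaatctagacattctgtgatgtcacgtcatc
The second CHR match of Polq and its E2F letters run past the last base shown, and the Parp1 bases hold no match. A match of letters is a description and not a binding site.

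Polq (chr16:37011741-37095419), the gene of the end-joining polymerase, had low but nonzero TPM in every sample. It was at 13.6, 17.6 and 17.3 TPM in the tumors of GB344, GB359 and GB370. It was at 8.65, 6.33 and 8.50 TPM in the Brca2-mut;Trp53-WT cerebella and at 12.5, 10.2 and 10.8 TPM in the Brca2-WT;Trp53-mut cerebella. Each tumor was above each control, but the lowest tumor exceeded the highest control by little. Mean Polq was 16.2 ± 2.23 TPM in tumors (SD, n = 3) and 9.48 ± 2.13 TPM in controls (SD, n = 6), a ratio of means of 1.71.

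Throughout, the difference between groups was tested with limma on log2(TPM + 1), and a gene was called when its adjusted p was under 0.01 and its log2 fold change reached 1 in either direction. On this scale the fold changes of low genes are understated. Against both control genotypes the log2 fold change of Polq was 0.73 (SE 0.18, limma adjusted p = 0.00476), so Polq passed the p threshold and not the fold threshold. Against the Brca2-WT;Trp53-mut cerebella alone it was 0.50 (limma adjusted p = 0.0256), and neither threshold was passed.

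Parp1 (chr1:180568891-180600999), whose product makes most of the poly(ADP-ribose) of a damaged cell, had the highest TPM of the 10 genes in every sample. It was at 145, 123 and 153 TPM in the 3 tumors. In the controls it lay between 59.3 and 67.7 TPM, so that no tumor came near the control range. The mean was 140.5 ± 16.0 TPM in tumors (SD, n = 3) and 63.0 ± 3.68 TPM in controls (SD, n = 6), 2.23 times higher. Parp1 was called higher in tumors, with a log2 fold change of 1.14 (SE 0.087, limma adjusted p = 8.94e-07).

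Parp2 (chr14:50807897-50821301), which encodes the related enzyme that also responds to DNA breaks, was at 80.2, 54.8 and 54.0 TPM in tumors and between 30.3 and 43.6 TPM in controls. The GB344 tumor stood above the other two. The log2 fold change of Parp2 was 0.75 (SE 0.15, limma adjusted p = 0.00119), short of the fold threshold.

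Lig3 (chr11:82781109-82804274) encodes the ligase that seals nicks in base excision and end joining, and Xrcc1 (chr7:24546699-24573438) encodes the scaffold that stabilizes it. Lig3 was at 43.9, 35.9 and 41.3 TPM in tumors and 16.0 to 25.95 TPM in controls. Xrcc1 was at 72.8, 59.5 and 60.2 TPM in tumors and 26.9 to 36.6 TPM in controls. For both partners the lowest tumor was well above the highest control. The log2 fold changes were 0.87 for Lig3 (limma adjusted p = 0.000316) and 0.99 for Xrcc1 (limma adjusted p = 2.70e-05), both under 1 and therefore not called. Xrcc1 sat at the threshold and passed it, at 1.02 to 1.04, when the tumor of GB359 or GB370 or the cerebellum of GB517 or GB519 was left out. Of the exon bases of Lig3, 25.1% are shared with Rffl on the opposite strand. The library kit did not keep strand, so reads from those bases cannot be told apart, and Rffl itself was at 4.39 TPM in tumors and 10.7 TPM in controls.

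Fen1 (chr19:10199132-10204393), the gene of the flap endonuclease of Okazaki fragment maturation, base excision and microhomology joining, was at 65.1, 61.3 and 59.6 TPM in tumors. The 6 controls lay between 18.5 and 22.2 TPM. Fen1 was called higher, with means of 62.0 ± 2.80 TPM (SD, n = 3) and 20.1 ± 1.31 TPM (SD, n = 6), a ratio of 3.09 and a log2 fold change of 1.58 (SE 0.082, limma adjusted p = 6.53e-08). Most of its exon bases (78.8%) lie opposite an annotated antisense gene, Gm10143, and reads from the pair cannot be told apart without strand.

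Rbbp8 (chr18:11633276-11743207), whose product CtIP starts resection, differed the most among the 10 genes. It was at 26.2, 24.9 and 24.8 TPM in tumors. The Brca2-mut;Trp53-WT cerebella held 4.43, 3.61 and 4.02 TPM and the Brca2-WT;Trp53-mut cerebella 3.27, 4.17 and 4.24 TPM. Both the tumors and the controls were tightly grouped, with means of 25.3 ± 0.746 TPM (SD, n = 3) and 3.96 ± 0.435 TPM (SD, n = 6), a ratio of 6.39. The log2 fold change was 2.41 (SE 0.11, limma adjusted p = 3.77e-08), higher than that of 96.5% of the tested genes.

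The 3 subunits of the nuclease complex had unequal log2 fold changes, and the difference between them was not tested. Mre11a (chr9:14784654-14837125), the gene of the nuclease itself, was at 16.0, 16.2 and 16.4 TPM in tumors and 6.63 to 10.03 TPM in controls. Rad50 (chr11:53649519-53707319), the gene of the ATPase that bridges DNA ends, was at 15.2, 15.6 and 18.2 TPM in tumors and 7.01 to 8.56 TPM in controls. Their log2 fold changes were 0.90 (limma adjusted p = 0.000105) and 0.93 (limma adjusted p = 1.94e-05), past the p threshold and just under the fold threshold. Nbn (chr4:15957587-15992589), the gene of the subunit that recruits the ATM kinase, was at 25.1, 22.1 and 27.5 TPM in tumors and 18.03 to 25.5 TPM in controls, and the groups overlapped because the GB361 control was at 25.5 TPM. Its log2 fold change was 0.26, with a 95% interval of -0.01 to 0.53 (limma adjusted p = 0.0763), so no difference in Nbn was shown, and one of up to 0.53 is compatible with the interval.

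**Figure D1:**
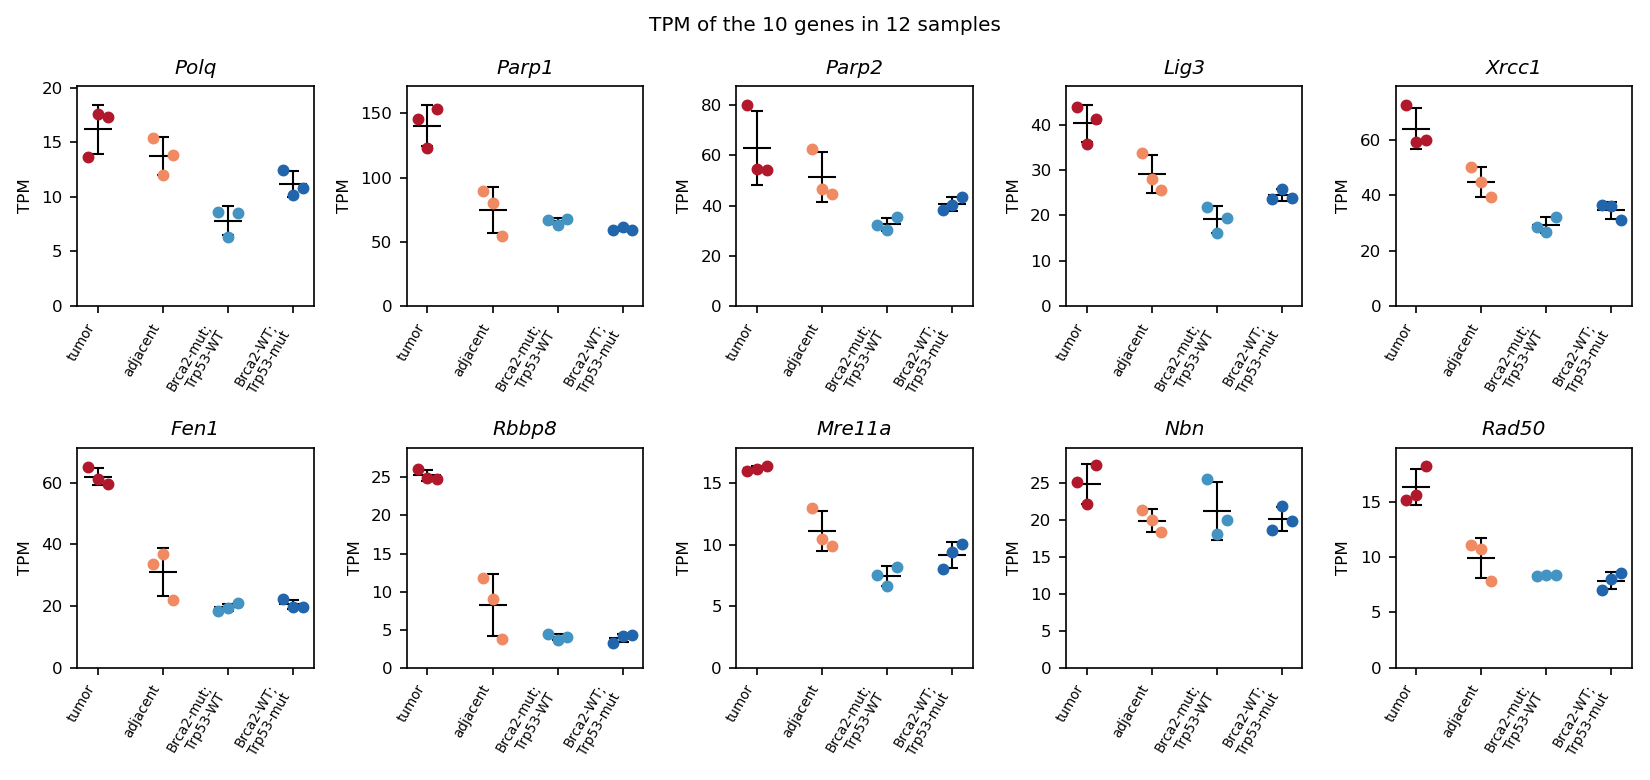
TPM of each of the 10 genes (vertical axis, linear, from 0) in the tumors, adjacent cerebella and both control genotypes, 3 samples each, ordered by mouse number within a group. Points are samples, horizontal bars are group means and error bars are SD. Rbbp8 separates most, at 24.8 to 26.2 TPM in tumors and 3.27 to 4.43 TPM in controls, and Nbn overlaps.

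Against both control genotypes, 3 of the 10 genes (Parp1, Fen1 and Rbbp8) were called higher and 0 lower, where 14.4% of the 16241 tested genes were called higher and 21.5% lower. The other 7 were not called, although 6 of them had an adjusted p under 0.01, as did 9 of the 10 genes in all. In 9 of the 10 genes each tumor was above each control, a pattern seen in 28.3% of tested genes. The median log2 fold change was 0.91 over the 10 genes and -0.11 over all tested genes. All 10 passed the expression filter in every comparison, and the lowest value of any of them in any sample was 3.27 TPM.

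Against the Brca2-WT;Trp53-mut cerebella alone, which share the loss of Trp53 with the tumors, the same 3 genes were called higher and 0 lower, where 13.5% of 15970 tested genes were called higher and 22.3% lower. Their log2 fold changes were 1.21 for Parp1, 1.55 for Fen1 and 2.43 for Rbbp8. The median over the 10 genes was 0.82, against -0.16 over all tested genes. Rad50, at 0.97, passed 1 when the tumor of GB344 (1.02) or the cerebellum of GB520 (1.03) was left out.

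The tumors also differed from control cerebella in the RNA of S phase and mitosis genes and of cell type markers. In tumors, summed TPM of the 15 S phase and mitosis genes were 1600 to 1975 and in controls 76.7 to 164. Summed Purkinje cell markers were 87.9 to 382 TPM in tumors and 5596 to 9308 TPM in controls. In bulk tissue, a change in the number of cells of a type and a change in RNA per cell cannot be told apart, and the part of cell makeup in the differences of the 10 genes was not tested.

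Scaling of the TPM columns moved these counts. Under median-of-ratios scaling, and equally under quantile normalization, 6 of the 10 genes were called higher against both control genotypes, with Xrcc1, Mre11a and Rad50 joining Parp1, Fen1 and Rbbp8. The median of all tested genes moved from -0.11 to -0.01 and 0.04, and the calls from 2341 higher and 3489 lower to 2639 and 3194, and to 2785 and 3055. Relative to the median of all tested genes, the 10 genes lay at nearly the same height under each scaling, since their own median moved from 0.91 to 1.02 and 1.09.

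**Figure D2:**
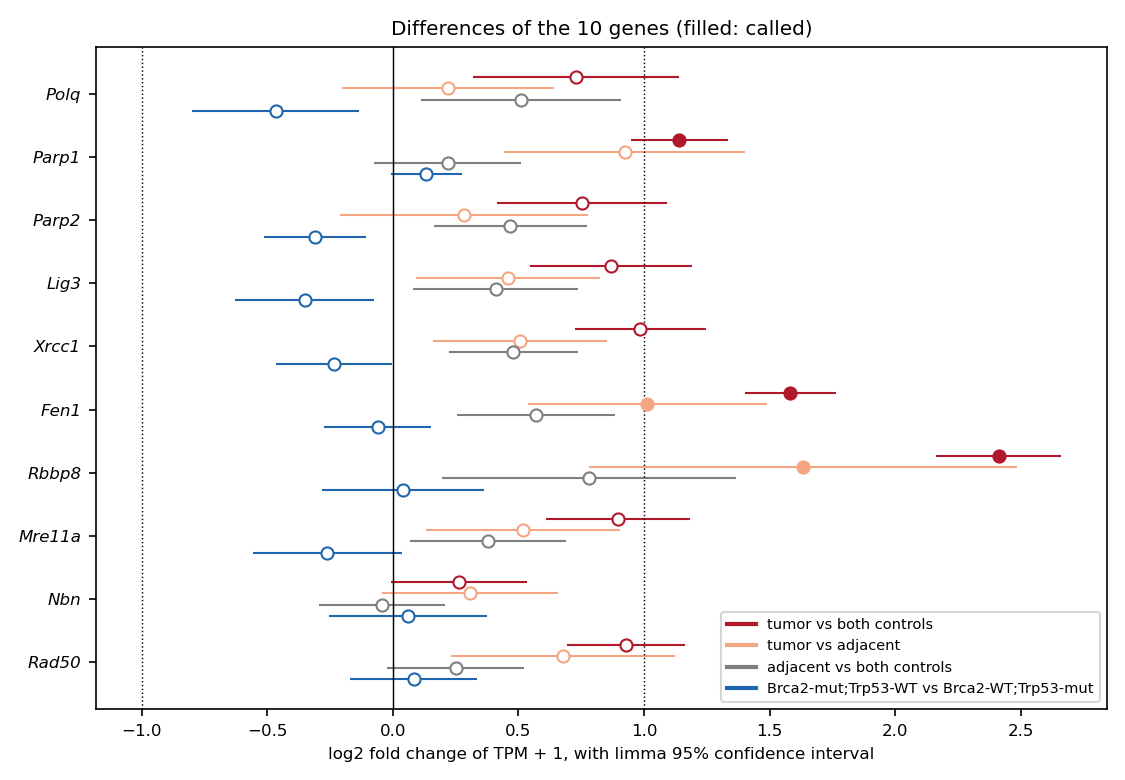
Differences of log2(TPM + 1) with limma 95% confidence intervals (horizontal axis) for the 10 genes in 4 comparisons, with filled points for genes called by the p and fold thresholds (dotted lines at -1 and 1). Parp1, Fen1 and Rbbp8 are called in tumors against controls, Fen1 and Rbbp8 against adjacent cerebellum, and none in the other two.

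Proportions between partner genes were compared within each sample, where library scaling cancels. These 6 ratios were chosen after the values were seen and are given as a description. Mre11a and Rad50, which form a heterotetramer, stayed near equal TPM, with a ratio of 0.901 to 1.06 in tumors and 0.790 to 1.18 in controls. Lig3 to Xrcc1 was 0.603 to 0.686 in tumors and 0.597 to 0.769 in controls. In both pairs the tumor ratios lay inside the control range. The control genotypes themselves were apart in Mre11a to Rad50, at 0.790 to 0.986 in Brca2-mut;Trp53-WT and 1.14 to 1.18 in Brca2-WT;Trp53-mut cerebella. Of the 6 ratios, only Lig3 to Xrcc1 overlapped between the control genotypes. In the same order, Parp1 to Parp2 was 1.91 to 2.09 and 1.36 to 1.55, and Nbn to Mre11a 2.43 to 3.38 and 1.97 to 2.33. Rbbp8 to Mre11a was 0.488 to 0.587 and 0.408 to 0.442, and Polq to Fen1 0.326 to 0.467 and 0.519 to 0.561. Several of these ratios share Mre11a, and how often ratios of other gene pairs separate the control genotypes was not counted. Of single tested genes, 20.3% were lower and 6.70% higher in each Brca2-mut;Trp53-WT cerebellum than in each of the other genotype.

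The proportion of Nbn to Mre11a was 1.37 to 1.68 in tumors and 1.97 to 3.38 in controls, with no overlap. Rbbp8 to Mre11a was 1.51 to 1.63 in tumors and 0.408 to 0.587 in controls. Polq to Fen1 was 0.209 to 0.290 in tumors and 0.326 to 0.561 in controls. In TPM, the CtIP transcript outnumbered that of the nuclease in the tumors and was below it in each control, while Nbn and Polq took a smaller proportion beside Mre11a and Fen1. Parp1 to Parp2 was 1.81 to 2.84 in tumors and 1.36 to 2.09 in controls, which overlapped. How often ratios separate in this way among all pairs of genes was not counted. Of single tested genes, 28.3% were higher and 35.7% lower in each tumor than in each control.

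**Figure D3:**
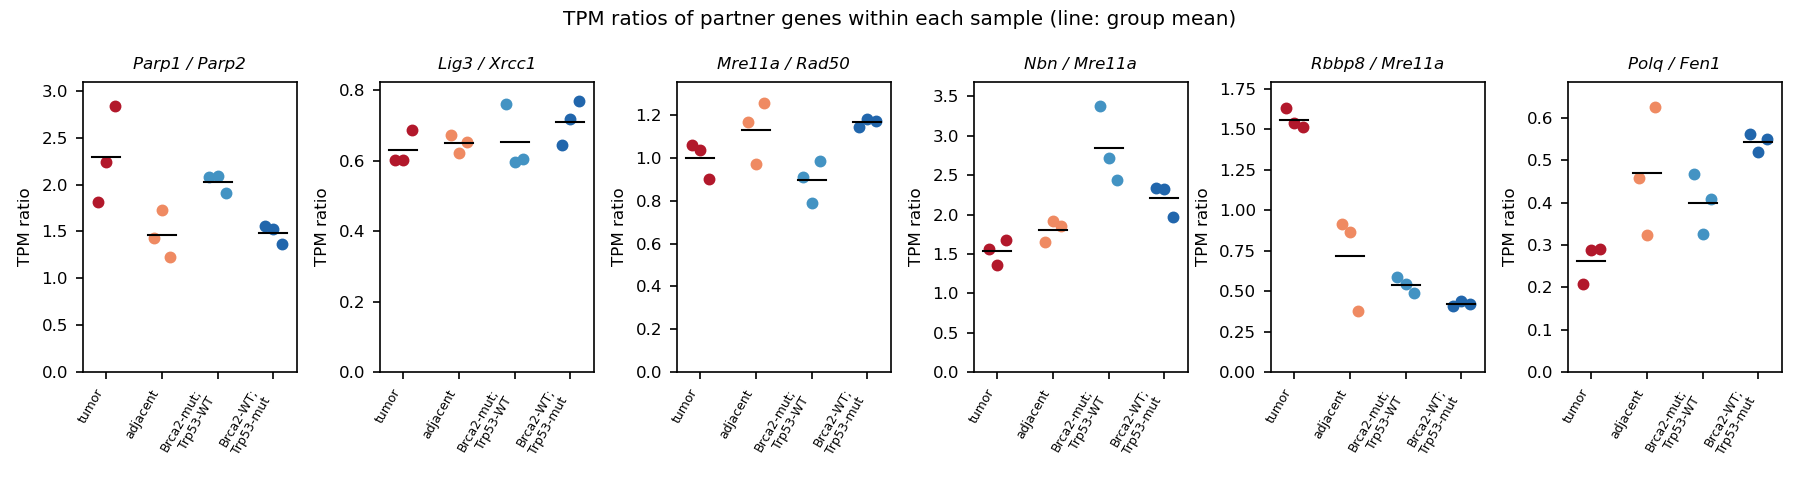
Ratio of the TPM of 2 partner genes within each sample (vertical axis, linear, from 0) for 6 pairs in the 4 groups. Points are samples and lines are group means. Rbbp8 to Mre11a is 1.51 to 1.63 in tumors and 0.408 to 0.587 in controls, whereas Mre11a to Rad50 in tumors (0.901 to 1.06) lies inside the control range.

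The adjacent cerebellum of the tumor-bearing mice lay between the tumors and the controls for most of the 10 genes. Rbbp8 was at 11.8, 9.07 and 3.73 TPM in the adjacent cerebella of GB344, GB359 and GB370. Fen1 was at 33.7, 36.9 and 22.1 TPM, and Parp1 at 89.8, 80.1 and 54.8 TPM. For these 3 genes, GB344 and GB359 were above each of the 6 controls and GB370 was not. Against the adjacent cerebella, Fen1 (log2 fold change 1.01, SE 0.20, limma adjusted p = 0.00631) and Rbbp8 (1.63, SE 0.36, limma adjusted p = 0.00960) were called higher in tumors. These were 2 of the 10 genes, with 0 lower, where 4.76% of 15845 tested genes were called higher and 18.0% lower.

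Both calls stood close to the thresholds. With the mouse as a replicate block, Fen1 was still called and Rbbp8 was not (1.63, limma adjusted p = 0.0105). Leaving out any 1 of the 6 samples ended the call of Fen1, whose log2 fold change then ran from 0.80 to 1.15. The call of Rbbp8 ended without the tumor of GB344, GB359 or GB370 or the adjacent cerebellum of GB359, with a log2 fold change of 1.21 to 1.93 over all fits that left out a sample. Parp1 (0.92, SE 0.20, limma adjusted p = 0.00953) was under the fold threshold and passed it without the adjacent cerebellum of GB344 (1.07, limma adjusted p = 0.00966) and under both scalings (1.10 and 1.09).

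Within the 3 mice, the tumor exceeded its own adjacent cerebellum for 9 of the 10 genes in every mouse, as it did for 30.2% of tested genes. The difference in log2(TPM + 1) was 1.08, 1.36 and 2.45 for Rbbp8 in GB344, GB359 and GB370. It was 0.93, 0.72 and 1.39 for Fen1 and 0.69, 0.61 and 1.47 for Parp1. In all 3 genes it was widest in GB370, the mouse whose adjacent cerebellum was nearest to the controls.

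Polq was the exception. It was at 15.4, 11.98 and 13.8 TPM in the adjacent cerebella, and in GB344 the tumor (13.6 TPM) was below its adjacent cerebellum, a difference of -0.17. The log2 fold change of tumor against adjacent cerebellum was 0.22 for Polq, with a 95% interval of -0.20 to 0.64 (limma adjusted p = 0.338). Parp2 overlapped as well, with 62.7, 46.5 and 44.6 TPM in the adjacent cerebella and a log2 fold change of 0.28 (limma adjusted p = 0.291). The remaining 6 genes had log2 fold changes of 0.31 to 0.92, not called, and each tumor was above each adjacent cerebellum for all of them. With Fen1 and Rbbp8 these were 8 of the 10 genes, and 23.7% of tested genes had this pattern.

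Against both control genotypes, 0 of the 10 genes were called in the adjacent cerebella in either direction by limma, where 0.224% of 16091 tested genes were called higher and 0.0124% lower. At an unadjusted p under 0.05 there were 7 of the 10 genes and 5551 of all tested genes. The median log2 fold change was 0.44 over the 10 genes and 0.07 over all tested genes. The largest was that of Rbbp8, 0.78 (SE 0.26, limma adjusted p = 0.0683). Parp2 (0.47) and Xrcc1 (0.48) were higher in each adjacent cerebellum than in each control, with limma adjusted p of 0.0457 and 0.0267. These were 2 of the 10 genes, and 11.7% of tested genes had the same pattern. Nbn was at 21.4, 20.04 and 18.3 TPM, inside the control range in all 3 mice.

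The 3 adjacent cerebella were not alike. In GB344, 9 of the 10 genes were above all 6 controls, with a median log2 difference of 0.64 from the control mean, and so were 37.4% of tested genes. In GB359 there were 8 such genes (0.35), beside 33.0% of tested genes. In GB370 there were 3 (0.18), namely Polq, Parp2 and Xrcc1, beside 27.8% of tested genes, a share close to that of the 10. Summed progenitor markers were 486 TPM in GB344, 459 TPM in GB359 and 78.3 TPM in GB370, all above the control range. Summed S phase and mitosis genes were 725, 551 and 135 TPM in the same order. The part of tumor or progenitor cells in these values was not tested.

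Without the adjacent cerebella of GB344 and GB359, the adjacent cerebellum of GB370 alone differed from the controls by -0.06 for Rbbp8, -0.20 for Parp1 and -0.04 for Rad50 (log2), each the opposite sign of the fit with all 3 mice. This lone sample is assumed to vary like the controls. Without the adjacent cerebellum of GB370, Rbbp8 was called higher (1.20, limma adjusted p = 0.000684).

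**Figure D4:**
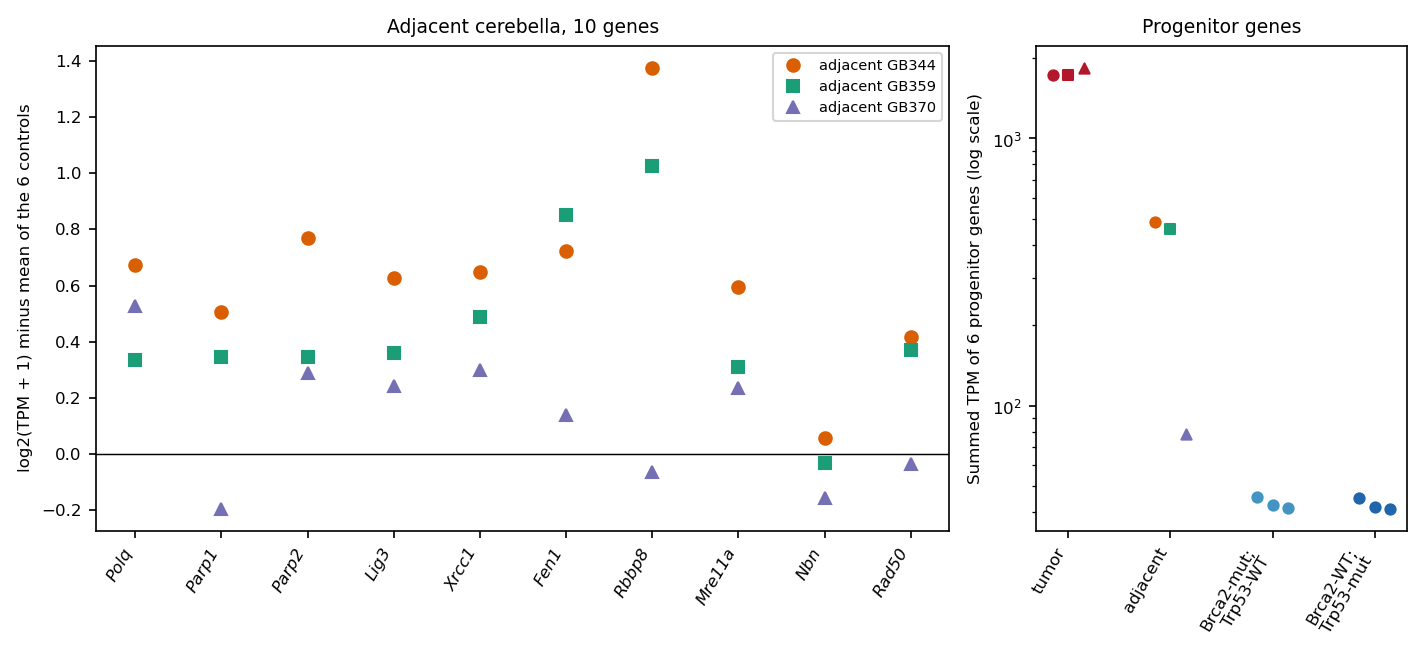
Left, difference in log2(TPM + 1) of each adjacent cerebellum from the mean of the 6 controls (vertical axis) for the 10 genes, 1 symbol for each mouse. Right, summed TPM of 6 progenitor genes in each sample (log axis), with the same symbols for the 3 tumor-bearing mice. GB344 is above the control mean for all 10 genes and GB359 for all but Nbn (-0.03), with 486 and 459 TPM of progenitor genes. GB370 is at 78.3 TPM of progenitor genes and below the control mean for Parp1, Rbbp8, Nbn and Rad50. For Polq, GB370 (0.53) is above GB359 (0.33).

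The control genotypes were compared with each other to ask whether Brca2 or Trp53 status went with a difference in tumor-free cerebellum. By limma, 0 of the 10 genes were called in either direction, where 0.0128% of 15575 tested genes were called higher and 0.0449% lower in Brca2-mut;Trp53-WT cerebella. At an unadjusted p under 0.05 there were 4 of the 10 genes (Polq, Parp2, Lig3 and Xrcc1) and 3123 of all tested genes. All 4 had lower means in the Brca2-mut;Trp53-WT cerebella. Over the 10 genes the median log2 fold change was -0.15, and over all tested genes -0.07. Under median-of-ratios scaling these medians were -0.066 and 0.005, and under quantile normalization -0.052 and 0.011.

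The widest gap was that of Polq, with means of 7.82 ± 1.30 TPM in the Brca2-mut;Trp53-WT cerebella and 11.1 ± 1.20 TPM in the Brca2-WT;Trp53-mut cerebella (SD, n = 3 each). The groups did not overlap, and the log2 fold change was -0.47, with a 95% interval of -0.80 to -0.13 (limma adjusted p = 0.149). Parp2 (-0.31) and Lig3 (-0.35) were also lower in each Brca2-mut;Trp53-WT cerebellum than in each cerebellum of the other genotype, a pattern seen in 20.3% of tested genes. Parp1 was higher in each, by 0.13, a pattern seen in 6.70% of tested genes. Rbbp8, Nbn and Rad50 differed by 0.04, 0.06 and 0.08, and Fen1 by -0.06, all with overlapping groups. The sign of the Fen1 difference flipped to 0.02 and 0.04 under the scalings.

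The 2 genotypes differ at both genes at once, so Brca2 and Trp53 status cannot be told apart here. Choroid plexus markers moved with genotype too, although limma called 0 of the 5 genes. Their sum (Ttr, Kl, Folr1, Aqp1 and Kcnj13) was 3943 to 5155 TPM in the Brca2-WT;Trp53-mut cerebella and 865, 13.98 and 16.95 TPM in those of GB361, GB508 and GB512. Polq was at 8.65, 6.33 and 8.50 TPM in GB361, GB508 and GB512, in that order. Summed Purkinje cell markers were 7710 to 9308 TPM in Brca2-mut;Trp53-WT and 5596 to 6114 TPM in Brca2-WT;Trp53-mut cerebella. Mature granule neuron markers were at 2818 to 3376 and 3499 to 3761 TPM in the same order. Astrocyte and Bergmann glia markers were at 1316 to 1528 and 1251 to 1303 TPM. Sums for oligodendrocytes, microglia, endothelium and blood overlapped. The part of choroid plexus tissue or of other cells in the Polq difference was not tested.

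The genes that act beside the 10 were read from lists of the same pathways. In the list of poly(ADP-ribose) turnover and single-strand break repair, 4 of 13 genes were called higher in tumors against both controls, 0 lower, and 9 were not called, with a median of 0.68. The largest were Apex1, the abasic site endonuclease (284 TPM in tumors and 36.4 TPM in controls, log2 fold change 2.93), and Lig1, the replicative ligase (117 and 17.7 TPM, 2.66). Pcna and Tdp1 were the other two called. The smallest were Parp3 (9.19 and 9.22 TPM) and Aptx (9.11 and 10.9 TPM, -0.24).

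Long-range resection takes over from the MRE11 complex, and 8 of its 10 genes, with the RPA subunits, were called higher and 0 lower, with a median of 1.60. Exo1, the exonuclease, was at 17.4 TPM in tumors, against 0.290 TPM in controls (3.86), and Dna2, the nuclease and helicase, at 20.9 and 3.53 TPM (2.28). Rpa1 (92.1 and 75.7 TPM, 0.28) and Rmi1 (8.71 and 13.5 TPM, -0.57) were not called. The log2 fold changes of Exo1 and Dna2 were above those of Mre11a and Rad50, and that of Exo1 above that of Rbbp8, differences between genes that were not tested.

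Factors that restrain resection were mixed. Of 9 tested, 3 were called higher, 0 lower and 6 not. Their log2 fold changes ran from -0.41 (Rif1, not called) to 3.47, with a median of 0.60. Mad2l2, the shieldin subunit REV7 that also serves DNA polymerase zeta and mitosis, was at 173 TPM in tumors, against 14.9 TPM in controls (3.47), and Xrcc5, which encodes KU80, at 61.3 and 15.6 TPM (1.91). Trp53bp1, which encodes 53BP1, was at 55.8 and 47.2 TPM (0.24), and Fam35a, the shieldin subunit SHLD2, at 6.83 and 6.36 TPM (0.07).

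All 15 S phase and mitosis genes were called higher, with a median of 4.83, from Top2a (206 and 1.78 TPM, 6.71) and Mki67 (113 and 1.16 TPM, 6.06) to Tyms (49.4 and 10.7 TPM, 2.10) and Ccne2 (21.5 and 10.1 TPM, 1.01). The lists were read against the 14.4% of genes called higher among all those tested, and no test of a list was made. Under the scalings the counts called higher against both controls moved by at most 1 in each of these lists.

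**Figure D5:**
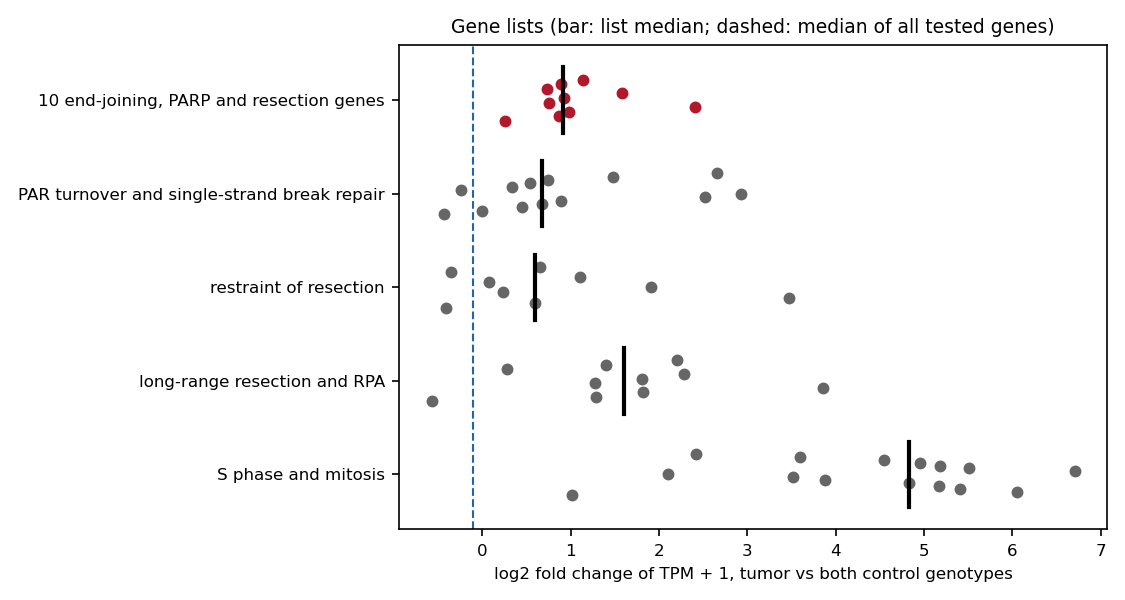
Log2 fold change of TPM + 1 in tumors against both control genotypes (horizontal axis) for the 10 genes (red) and the genes of 4 other lists (gray). Each point is a gene, black bars are list medians and the dashed line is the median of all tested genes, -0.11. The list medians run from 0.60 for restraint of resection to 4.83 for S phase and mitosis, with 0.91 for the 10 genes.

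Against the adjacent cerebella, the counts called higher were 3 of 13 in poly(ADP-ribose) turnover, 4 of 10 in long-range resection, 2 of 9 in restraint of resection and 2 of 15 in S phase and mitosis, with 0 lower in each, where 4.76% of tested genes were called higher. These counts moved with the scaling. Long-range resection had 5 of 10 genes called higher under median-of-ratios scaling and 8 under quantile normalization, S phase and mitosis 4 and 5 of 15, and poly(ADP-ribose) turnover 4 of 13 under both, while restraint of resection stayed at 2. Between the control genotypes, limma called 0 of the 41 tested genes of these 4 lists in either direction, and 3 had an unadjusted p under 0.05.

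The genes whose profile over the 12 samples was nearest to that of Polq were looked up among the 16240 other genes tested against both controls, by the mean absolute difference of log2(TPM + 1) after centering each gene. For Polq these were Mbd6 (0.086), 2610035F20Rik (0.088), Gps2 (0.092), Rgl2 (0.093) and 4930579G18Rik (0.095). For Parp1 they were Csk (0.058), Pspc1 (0.060), P4hb (0.065), Tuba1b (0.065) and Ostc (0.068). None of them is among the other 9 genes or the lists above.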

How the data were processed

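Poly(A) RNA of 12 mouse samples was sequenced. Transcripts were quantified by the authors with Salmon 0.8.1 on mm10 and summed to genes. The deposited values are TPM for 24091 genes in 1 table with 1 column for each sample, and 0 sample columns were left unused. Without read counts the depth of each sample is unknown, no counting error or detection floor is given, and precision rests on the spread between mice. The share taken by Mir6236 ran from 4.25% to 11.5%. Samples were grouped by their labelled tissue and genotype, and labels do not say that the replicates differ in more than the mouse. The labels name a library kit that does not keep strand.

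The test took in genes that reached 1 TPM in 3 or more samples of the comparison. It was run in R 4.3.3 with limma 3.58.1 (lmFit, then eBayes with trend) on log2(TPM + 1), and p-values were adjusted by Benjamini-Hochberg over every gene tested. The study tested counts, which were not used here. Its thresholds were kept, a log2 fold change of 1 or more in either direction together with an adjusted p under 0.01. The 5 comparisons used only the samples of the groups compared, and comparisons that share control or tumor samples are not independent of each other. The script was tested on simulated data. Tumor and adjacent samples share mice, and their deviations from the group means correlated over genes with r of 0.249, 0.176 and 0.152 in GB344, GB359 and GB370, so the mouse was used as a replicate block in an alternative.

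The genes and lists were chosen with earlier results of these data known. Named genes are the 10 genes, the 2 largest and 2 smallest absolute changes of each pathway list in tumors against both controls, and for Polq and Parp1 the 5 nearest profiles. Pcna, Tdp1, Rffl and Rif1 were named after their values were seen. Shld3 of the list of restraint of resection was not matched, and Shld1 and Shld2 were read as 1110034G24Rik and Fam35a. A further list is not reported here. Promoter windows and positions are those of RefSeq on GRCm38.p6, and exon overlaps those of GENCODE. Figures and motif searches used Python 3.11.15, numpy 2.4.6, pandas 2.3.3 and matplotlib 3.10.9.

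Alternatives were pseudocounts of 0.1 and 0.01, a filter at 5 TPM and none at all, scaling by the median of ratios, quantile normalization, eBayes without trend, all 4 groups in a fit, an adjusted p under 0.05 together with no fold minimum, the mouse as a replicate block, and each sample left out. All but the thresholds changed 1 choice at a time. Leaving out 2 adjacent cerebella, and removing Mir6236 before rescaling, were added after seeing the data.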

Additional observations from a re-analysis of the deposited data

Results flagged for a closer look

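Among the 6 control cerebella of both genotypes, Rad50 in the Brca2-WT;Trp53-mut mouse GB517 was at 7.01 TPM, below the 7.99 to 8.56 TPM of the other 5. Its gap to the nearest control was 0.652 of the whole control range in log2(TPM + 1), above Dixon's 95% critical value for 6 samples. The controls were tested on both sides for each of the 10 genes, and chance alone flags about 1 group in 20. Without GB517, Rad50 differed between tumors and both control genotypes by 0.89 on the log2 scale and was still not called.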

How the results depend on the processing

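Against both control genotypes, 3 of the 10 genes were called higher, and 5 were with a pseudocount of 0.1 or 0.01, 6 under median-of-ratios scaling or quantile normalization, and 9 at an adjusted p under 0.05 with no fold minimum. Leaving out 1 sample gave 3 to 4. Against the Brca2-WT;Trp53-mut cerebella alone, the 3 calls became 5 under median-of-ratios scaling, 6 under quantile normalization and 9 at the looser threshold. They were 3 to 4 with 1 sample left out. Rad50 was also called there with a pseudocount of 0.1 (1.05) or 0.01 (1.06). Against adjacent cerebella, the 2 calls became 1 with either smaller pseudocount, with eBayes without trend, with the mouse as a replicate block and without the adjacent cerebella of GB344 and GB359, 0 with no filter, 7 at the looser threshold, and 0 to 2 with 1 sample left out. Under median-of-ratios scaling or quantile normalization, the 2 calls against adjacent cerebella became 3, with Parp1 joining. In these paired samples the replicate block changed no call of the 10 genes but that of Rbbp8. In adjacent against control cerebella, the 0 calls became 3 at the looser threshold and 0 to 1 with 1 sample left out. No gene of the 10 was called lower in any fit. The cause of these changes was not tested. With no filter more genes were tested, and with a sample or 2 left out the fit held fewer samples.

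Differences that changed sign were not called in any of the fits concerned. Between the control genotypes, Fen1 moved from -0.06 to 0.020 under median-of-ratios scaling and 0.037 under quantile normalization. With 1 sample left out there, Rbbp8 ran from -0.055 to 0.099 and Nbn from -0.076 to 0.16, and in adjacent against control cerebella Nbn ran from -0.095 to 0.015. Without the adjacent cerebella of GB344 and GB359, Parp1 was at -0.20, Rbbp8 at -0.064 (0.78 with all 3 mice) and Rad50 at -0.036 against the controls. Of the fits for single genes, 814 kept direction and side of the threshold, 47 passed it anew, 17 fell short of it and 10 changed sign. Under the minimum of 5 TPM, Rbbp8 was not tested between the control genotypes or in adjacent against control cerebella. The scalings moved the calls of tumor against adjacent cerebellum from 755 higher and 2852 lower to 1296 and 2476, and to 1603 and 2192. With 3 samples in a group and no counts, small differences of low genes such as Polq and Rbbp8 in controls are limited by the spread between mice.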
